A study of Mus musculus with 8 samples.

Results

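The classical STAT3 target genes are 9 genes known from work on many cell types to be switched on by the transcription factor STAT3: Socs3, Pim1, Bcl3, Mcl1, Bcl2l1, Ccnd1, Hif1a, Vegfa and Myc. They are a list of gene names, with no threshold on their values, and all 9 are among the 25124 genes measured. They were followed in RNA-seq libraries of lung cells from C57BL/6 mice, sorted by flow cytometry and labelled airway epithelial cells. The 8 libraries form 4 groups of 2: STAT3 conditional knockout given house dust mite (cKO HDM), STAT3 wild type given house dust mite (WT HDM), conditional knockout given phosphate-buffered saline (cKO PBS) and wild type given saline (WT PBS). House dust mite is an allergen source that raises allergic inflammation in mouse airways. The sources used here do not give the cell type in which Stat3 was deleted, the age of the mice or the schedule of HDM. The labels also leave unsaid whether both libraries of a group are from different mice, so a p-value here reflects library-to-library spread, which may be technical.

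STAT3 is activated when cytokines of the IL-6 family, and others such as IL-10 and IL-22, bind receptors that carry Janus kinases. Phosphorylated STAT3 forms dimers, enters the nucleus and binds DNA sites with the inverted repeat TTCNNNGAA. Among its classical targets, Socs3 feeds back to switch off the receptor, Pim1, Bcl3, Mcl1 and Bcl2l1 serve cell survival, Ccnd1 and Myc serve growth, and Hif1a and Vegfa serve the response to low oxygen and the growth of vessels. In lung epithelium STAT3 is known for its part in survival and repair after injury.

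The promoters of a pair of members are shown because these genes gave contrasting results below: Pim1 was the member with a called difference between genotypes, and Socs3 the member with almost the same level in both genotypes under HDM. Each line holds the 250 bases before the RefSeq transcription start on the strand of the gene (GRCm38.p6), chr11:117969367-117969616 on the minus strand for Socs3 and chr17:29490535-29490784 on the plus strand for Pim1, where the more upstream RefSeq start is used. Capitals mark the motif TTCNNNGAA. In the GENCODE M21 annotation Socs3 starts further upstream, at 117970047 on the minus strand, so its window lies wholly inside that gene. Pim1 starts there at 29490753, so the end of its window also lies inside the gene.
Socs3: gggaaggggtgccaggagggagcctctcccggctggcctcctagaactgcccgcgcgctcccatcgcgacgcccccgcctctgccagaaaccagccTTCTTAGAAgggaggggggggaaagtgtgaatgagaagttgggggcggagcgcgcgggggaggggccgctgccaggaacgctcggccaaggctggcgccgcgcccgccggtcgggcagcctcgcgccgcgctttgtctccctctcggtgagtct
Pim1: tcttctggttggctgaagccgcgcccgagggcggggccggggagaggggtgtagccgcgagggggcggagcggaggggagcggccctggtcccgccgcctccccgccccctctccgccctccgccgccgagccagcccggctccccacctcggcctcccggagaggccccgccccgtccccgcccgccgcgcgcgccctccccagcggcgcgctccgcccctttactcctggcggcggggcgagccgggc
In Socs3 the match TTCTTAGAA lay at positions -154 to -146 from the RefSeq start (chr11:117969512-117969520). The motif, which reads the same on both strands, was searched in windows of 300 bases, 250 before each start and 50 after it. It was in 8.3% of all 32851 such windows in RefSeq, and in 1 of the 11 windows of the 7 members that matched the table. The stricter form TTCCNGGAA, which is contained in the first, was in 1.15% of all windows and in 0 of those 11. A match is only a string of letters in this window.

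The libraries were shallow, with 232556 to 593200 reads. Values are normalized read counts, in which 1 read is worth 0.652 to 1.63 depending on the library. Of 7512 genes with a mean of at least 10, 8 are members. Myc was too low to be tested. The 6 epithelial markers (among them Epcam and Cdh1) had reads in every library, and together took 0.395% and 0.426% of reads in cKO HDM, 0.318% and 0.320% in WT HDM, 0.442% and 0.447% in cKO PBS, and 0.430% and 0.434% in WT PBS. Markers of the alveolar type 2 cell, which lines the air sacs and not the airways, took 1.05% and 1.15% of reads in cKO HDM, 2.14% and 3.02% in WT HDM, and 1.01% to 1.40% in the PBS libraries. Markers of club cells (4 genes) took 0.964% to 2.86% of reads in all. Those of ciliated cells (6 genes), like club cells a type of the conducting airways, took 0.740% and 0.682% in cKO HDM, 0.359% and 0.431% in WT HDM, and 0.576% to 0.703% in the PBS libraries. Among epithelial cell types, the WT HDM libraries thus had the highest share of alveolar type 2 markers and the lowest of ciliated cell markers. Basal cell markers (Krt5, Krt14 and Trp63) had at most 10 reads in a library. In such bulk samples, fewer cells of a type and less RNA per cell cannot be told apart.

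The WT HDM libraries also stood apart in markers of cells outside the epithelium. Endothelial markers (14 genes) took 0.0630% and 0.0720% of reads in cKO HDM, 0.323% and 0.314% in WT HDM, 0.0963% and 0.0691% in cKO PBS, and 0.0752% and 0.0761% in WT PBS. Fibroblast and smooth muscle markers (9 genes) took 0.0255% and 0.0258% in cKO HDM, 0.308% and 0.311% in WT HDM, and 0.00903% to 0.0288% in the PBS libraries. Macrophage and dendritic cell markers (9 genes) took 0.0979% and 0.100% in cKO HDM, 0.304% and 0.511% in WT HDM, and 0.0985% to 0.204% in the PBS libraries. Of these 9 genes, 8 and 9 had reads in the WT HDM libraries and 1 to 3 in each of the others. In the first cKO PBS library Lyz2 was the only one of the 9 with reads, so all 273 reads there were of Lyz2. Lyz2 had reads in every library, and whether they came from cells outside the epithelium was not tested. Csf1r, Adgre1, Cd68 and Itgam had 0 reads in all cKO HDM and PBS libraries, and Itgam also had 0 in the first WT HDM library. Neutrophil markers (4 genes) had 0 and 2 reads in cKO HDM, 33 and 78 in WT HDM, 11 and 0 in cKO PBS, and 0 and 8 in WT PBS. Red blood cell markers (4 genes) had 18 and 0 reads in cKO HDM, 347 and 324 in WT HDM, and 14 to 32 in the PBS libraries. Lymphocyte markers (6 genes) had 1 and 0 reads in cKO HDM, 19 and 7 in WT HDM, and 0 in each PBS library. Every difference below that sets WT HDM against another group therefore sets libraries with these different marker levels against each other, and the part of these cells in it was not tested.

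Stat3, the targeted gene (mm10 chromosome 11, 100885098 to 100939540), gave 106 and 111 reads in cKO HDM, 205 and 122 in WT HDM, 35 and 76 in cKO PBS, and 99 and 45 in WT PBS. In normalized counts these were 76.9 and 92.2 in cKO HDM, 134 and 157 in WT HDM, 56.9 and 96.5 in cKO PBS, and 75.8 and 40.9 in WT PBS. Both WT HDM libraries lay above the other 6. The cKO PBS libraries overlapped those of cKO HDM and of WT PBS, and the cKO HDM libraries lay just above those of WT PBS. Stat3 reads were thus present in every library labelled cKO. The genotype difference did not pass under HDM (log2 difference -0.78 ± 0.39, limma adjusted p = 0.549) or under PBS (0.41 ± 0.39, limma adjusted p = 0.845). HDM against PBS in WT gave 1.36 ± 0.39 (limma adjusted p = 0.189), which passed when only those groups were fitted (adjusted p = 0.0302) and with a minimum mean of 50 (0.0442). Counts over a whole gene can stay level when only part of it is removed. The Stat3 counts therefore do not check the genotype labels, on which each genotype comparison depends. Stat5a overlaps Stat3 on the opposite strand and may share its reads.

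Pim1 (mm10 chromosome 17, 29490753 to 29496112) encodes a serine/threonine kinase that promotes survival and growth. It was the only member called between groups, and it fell in cKO against WT under HDM. It had 0 and 0 reads in cKO HDM, 67 and 73 in WT HDM, 8 and 20 in cKO PBS, and 5 and 5 in WT PBS. As normalized counts these were 0 and 0 in cKO HDM, 43.7 and 94.1 in WT HDM, 13.0 and 25.4 in cKO PBS, and 3.83 and 4.55 in WT PBS. No group overlapped another, and the order was WT HDM highest, then cKO PBS, WT PBS and cKO HDM. Both WT HDM libraries lay above the other 6, which held for 8.99% of all genes tested and for 1 of the 8 members tested.

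Under HDM Pim1 had a mean of 0 in cKO and of 68.9 ± 35.7 in WT (SD, n = 2). For counting error alone, a count of 0 allows up to 3 reads per library, and cKO was then at least 29.5-fold lower. Libraries of a group varied by more than counting error (chi-square per degree of freedom 4.92 to 6.29 by group), which this bound leaves out. Without the second WT HDM library, left out in a check chosen after seeing the data, this bound is 18.7-fold. The fitted log2 difference was -6.03 ± 1.13 (limma adjusted p = 0.0205), a size that depends on the pseudocount of 1. Under PBS the direction was the opposite: 19.2 ± 8.76 in cKO and 4.19 ± 0.51 in WT (SD, n = 2 each), a log2 difference of 1.89 ± 1.13 that did not pass (limma adjusted p = 0.75). By the same kind of bound, HDM libraries of cKO were at least 8.23-fold lower than PBS libraries of cKO. Without the second cKO PBS library, in the same later check, that bound is 5.57-fold. The fitted log2 difference of HDM against PBS in cKO was -4.27 ± 1.13 and did not pass (limma adjusted p = 0.312). In WT, HDM against PBS gave 3.66 ± 1.13 (limma adjusted p = 0.252), which did not pass with limma but did with edgeR (3.97, adjusted p = 0.0328) and DESeq2 (4.04, adjusted p = 0.00109). Averaged over treatment, cKO against WT gave -2.07 ± 0.80 (limma adjusted p = 0.493). The response to HDM in cKO minus that in WT was -7.92 ± 1.59 on the log2 scale, which did not pass with limma (adjusted p = 0.155) and passed with edgeR (adjusted p = 0.0116) and DESeq2 (adjusted p = 8.48e-06).

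The call under HDM rested on few libraries. With either WT HDM library left out it was lost (limma adjusted p = 0.0585 without replicate 1 and 0.498 without replicate 2). The same held for either cKO HDM library (0.0912 and 0.0788) and for replicate 2 of WT PBS (0.0508). It was also lost with a pseudocount of 0.2 (0.0764), with no filter on low values (0.0817) and with no variance trend (0.0704). In 13 of the 21 alternative settings that tested Pim1 it held, with the same sign in all 21. The difference between genotypes under HDM has the direction of marker differences above, with leukocyte, endothelial, fibroblast and alveolar type 2 markers higher in WT HDM. The part of these cells in it was not tested. Under PBS, Pim1 was higher in cKO. Club cell markers were also higher without overlap (2.86% and 1.98% in cKO PBS, 1.66% and 1.51% in WT PBS). So were epithelial markers (0.442% and 0.447% in cKO PBS, 0.430% and 0.434% in WT PBS). Basal cell markers summed were as well, with 9 and 10 reads in cKO PBS and 0 and 1 in WT PBS. No basal marker had reads in both cKO PBS libraries: the 9 reads were all of Trp63 and the 10 all of Krt5. Of all genes tested, 15.7% were higher in cKO PBS without overlap. The part of these cells in the level of Pim1 was not tested. Neutrophil markers overlapped between these groups, with 11 and 0 reads in cKO PBS and 0 and 8 in WT PBS. So did the marker sets of endothelium, fibroblasts, macrophages, red blood cells, ciliated cells and both alveolar types. An antisense gene, Gm26885, is annotated over the start of Pim1, and without a statement on strand in counting its reads cannot be told apart from those of Pim1.

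**Figure D1:**
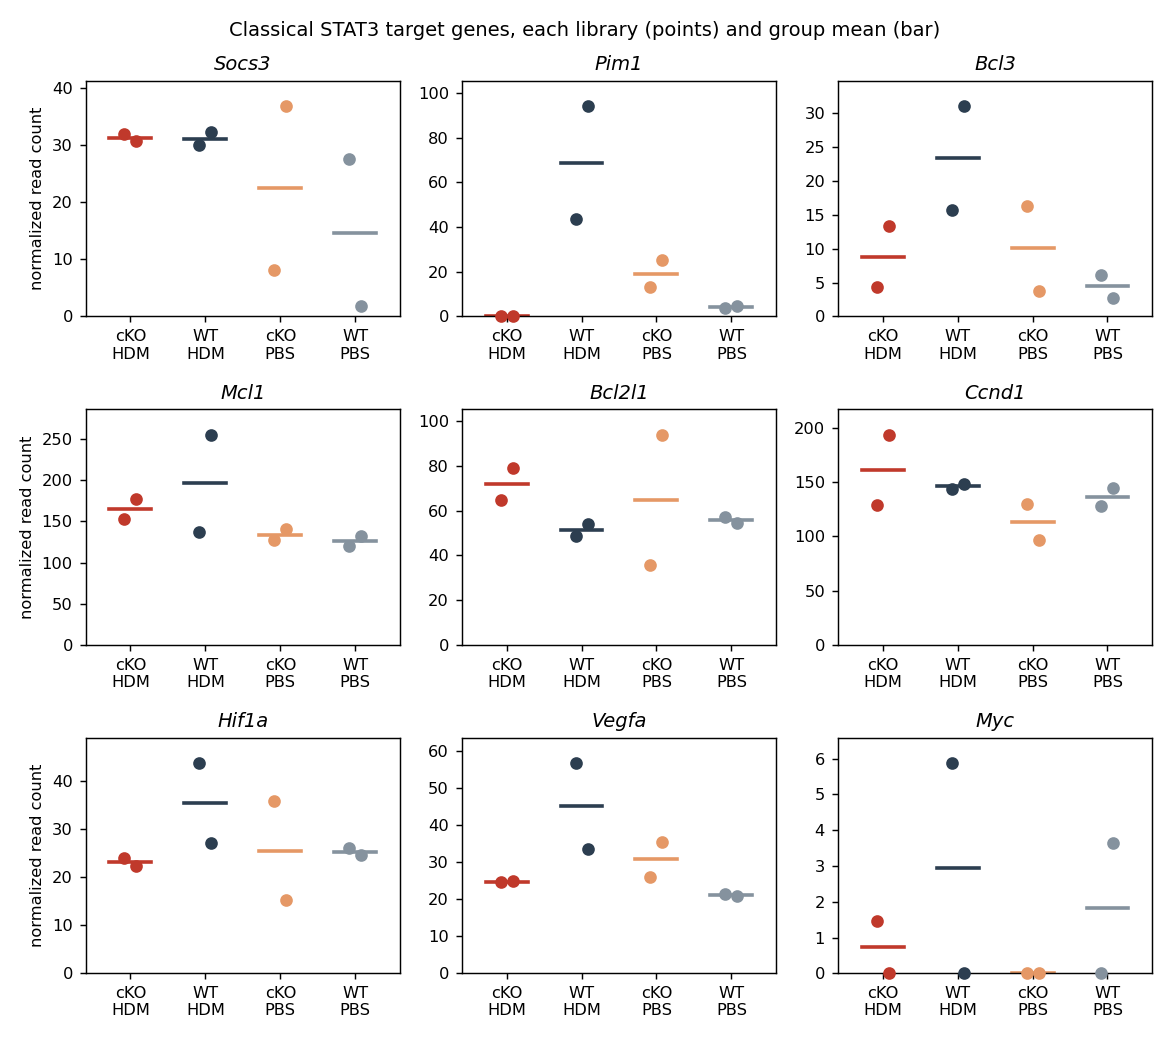
Normalized read counts of the 9 genes in each library (points) with the mean of each group (bar), for cKO HDM, WT HDM, cKO PBS and WT PBS, 2 libraries each. Pim1 stands at 0 in both cKO HDM libraries and at 43.7 and 94.1 in WT HDM, while Socs3 is near 31 in all 4 HDM libraries.

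Socs3 (mm10 chromosome 11, 117966079 to 117970047) encodes the feedback inhibitor that binds the activated receptor and blocks its kinases. Its normalized counts were 31.9 and 30.7 in cKO HDM, 30.0 and 32.2 in WT HDM, 8.13 and 36.8 in cKO PBS, and 27.6 and 1.82 in WT PBS. The 4 HDM libraries were close together, and the libraries of each PBS group were far apart, with 5 and 29 reads in cKO PBS and 36 and 2 in WT PBS. Socs3 in cKO HDM differed from WT HDM by 0.01 ± 0.95 on the log2 scale, with a 95% interval of -2.02 to 2.04 (limma adjusted p = 0.998). The fit shares its estimate of spread with the PBS groups, and the interval allows a sizeable difference in either direction. HDM against PBS gave 0.80 ± 0.95 in cKO and 1.84 ± 0.95 in WT, and neither passed (limma adjusted p = 0.854 and 0.619).

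Bcl3 (mm10 chromosome 7, 19808462 to 19822770) encodes an IκB family protein that acts in the nucleus with NF-κB subunits. It was the lowest of the tested members, with 3 to 24 reads in a library. It stood at 4.35 and 13.3 normalized counts in cKO HDM, 15.7 and 30.9 in WT HDM, 16.3 and 3.81 in cKO PBS, and 6.12 and 2.73 in WT PBS. The WT HDM libraries lay above those of cKO HDM and of WT PBS, and overlapped those of cKO PBS. Set against WT HDM, cKO HDM had a log2 difference of -1.40 ± 1.13 (95% interval -3.81 to 1.01, limma adjusted p = 0.764), and HDM against PBS in WT gave 2.16 ± 1.13 (limma adjusted p = 0.62). Antisense genes are annotated over Bcl3 and may share its reads.

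Mcl1 (mm10 chromosome 3, 95658788 to 95663176) encodes a short-lived member of the BCL-2 family that blocks cell death. It had the most reads of the 9 genes, 1324 over all libraries. Its normalized counts were 153 and 177 in cKO HDM, 137 and 255 in WT HDM, 127 and 141 in cKO PBS, and 120 and 133 in WT PBS. The HDM libraries lay above the PBS libraries within each genotype, and the genotypes overlapped under both treatments. The log2 difference of HDM against PBS was 0.30 ± 0.32 in cKO and 0.56 ± 0.32 in WT, and neither passed (limma adjusted p = 0.832 and 0.665). For cKO against WT under HDM it was -0.18 ± 0.32, with a 95% interval of -0.86 to 0.49.

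Bcl2l1 (mm10 chromosome 2, 152780668 to 152831728) encodes BCL-XL, another inhibitor of cell death in the same family. It stood at 64.6 and 78.9 normalized counts in cKO HDM, 48.9 and 54.1 in WT HDM, 35.8 and 94.0 in cKO PBS, and 57.4 and 54.6 in WT PBS. Both cKO HDM libraries lay above both WT HDM libraries, and the cKO PBS libraries spanned all the other values. For cKO against WT under HDM, Bcl2l1 had a log2 difference of 0.46 ± 0.45 (95% interval -0.50 to 1.42, limma adjusted p = 0.816).

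Ccnd1 (mm10 chromosome 7, 144929931 to 144939925) encodes cyclin D1, which drives entry into the cell cycle. Its normalized counts were 128 and 194 in cKO HDM, 143 and 148 in WT HDM, 130 and 96.5 in cKO PBS, and 128 and 145 in WT PBS. Every pair of groups compared overlapped. Set against WT, cKO had a log2 difference of 0.11 ± 0.31 under HDM, with a 95% interval of -0.54 to 0.77, and -0.28 ± 0.31 under PBS, with a 95% interval of -0.93 to 0.38. The gene LTO1 overlaps its end on the opposite strand and may share reads with it.

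Myc (mm10 chromosome 15, 61985391 to 61990374), a transcription factor of growth, had 2 and 0 reads in cKO HDM, 9 and 0 in WT HDM, 0 and 0 in cKO PBS, and 0 and 4 in WT PBS. Every group had a library with 0 reads. A count of 0 allows up to 3 reads by counting error alone, so small differences in Myc could not be seen at this depth. Myc was low in every group, with at most 9 reads in a library, and its differences were not tested.

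Hif1a (mm10 chromosome 12, 73901375 to 73947530) encodes the oxygen-regulated subunit of hypoxia-inducible factor 1. Its normalized counts were 23.9 and 22.4 in cKO HDM, 43.7 and 27.1 in WT HDM, 35.8 and 15.2 in cKO PBS, and 26.0 and 24.6 in WT PBS. Both WT HDM libraries lay above those of cKO HDM and WT PBS, the lower of them narrowly, and the cKO PBS libraries spanned most of the range. Set against WT HDM, cKO HDM had a log2 difference of -0.55 ± 0.59 (limma adjusted p = 0.844). Annotated genes overlap Hif1a on both strands and may share its reads.

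Vegfa (mm10 chromosome 17, 46016993 to 46032369) encodes the vascular growth factor VEGF-A, which in lung is made largely by alveolar epithelium. It stood at 24.7 and 24.9 normalized counts in cKO HDM, 56.7 and 33.5 in WT HDM, 26.0 and 35.6 in cKO PBS, and 21.4 and 20.9 in WT PBS. Like Pim1, it was lower in both cKO HDM libraries than in both WT HDM libraries, and higher in both cKO PBS libraries than in both WT PBS libraries. Vegfa in cKO differed from WT by -0.79 ± 0.54 (log2) under HDM and 0.50 ± 0.54 under PBS, and neither passed (limma adjusted p = 0.687 and 0.863). HDM against PBS gave -0.29 ± 0.54 in cKO and 1.01 ± 0.54 in WT (limma adjusted p = 0.923 and 0.624), and the difference between these responses was -1.29 ± 0.76 (limma adjusted p = 0.687). Alveolar type 2 markers were higher in WT HDM than in cKO HDM, as given above, and alveolar type 1 markers took 0.0554% and 0.0641% in cKO HDM and 0.115% and 0.120% in WT HDM. Under PBS both sets overlapped between genotypes, at 1.15% and 1.31% in cKO PBS and 1.01% and 1.40% in WT PBS for type 2, and at 0.0606% and 0.0734% in cKO PBS and 0.0669% and 0.0739% in WT PBS for type 1. Their part in the level of Vegfa was not tested. Opposite directions without overlap, in both genotypes or in both treatments, held for 2 of the 8 members (Pim1 and Vegfa) and for 10.9% of all genes tested.

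**Figure D2:**
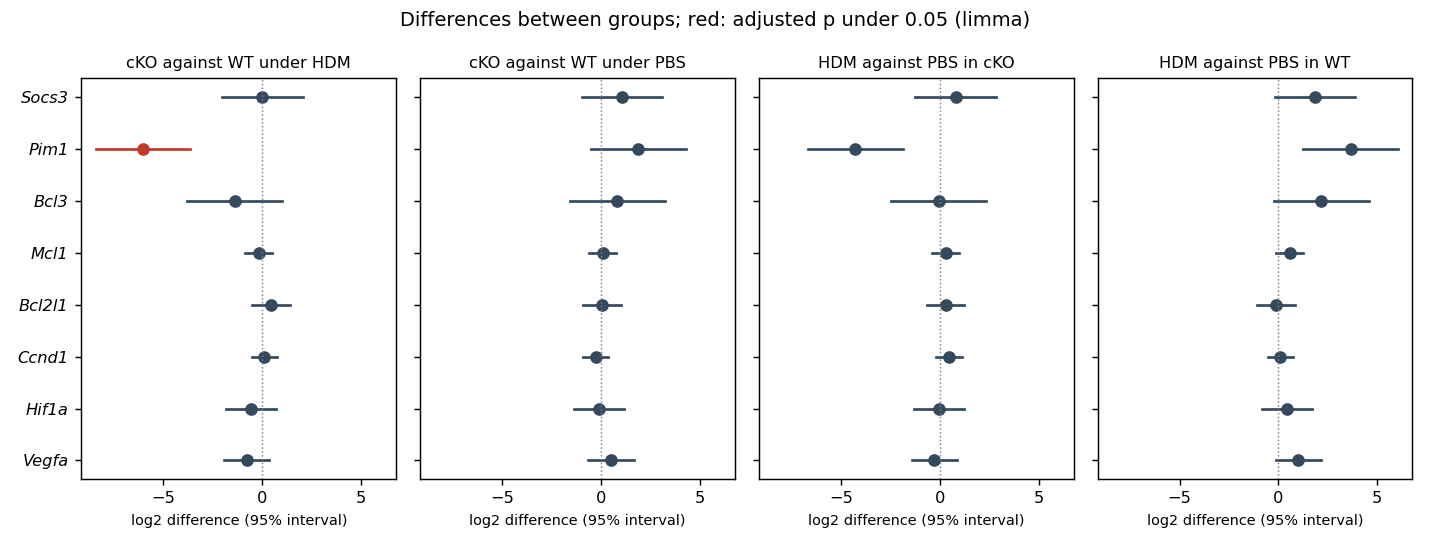
Log2 difference between groups with its 95% interval from limma, for the 8 members tested (rows) in 4 comparisons (panels). The interval of Pim1 under HDM, -8.42 to -3.63, is the one marked as called, and that of Mcl1 in the same panel runs from -0.86 to 0.49.

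Levels were set side by side only per kilobase of exon, with exon lengths from GENCODE M21. On that scale Mcl1 stood highest, with a mean over the 8 libraries of 45.5 normalized counts per kilobase, followed by Ccnd1 (29.5), Bcl2l1 (13.3), Socs3 (8.61), Vegfa (7.11) and Pim1 (6.86), and Myc stood lowest (0.504). In WT HDM alone Pim1 stood at 20.5 normalized counts per kilobase, next after Mcl1 (57.4) and Ccnd1 (31.0). Socs3, Vegfa and Pim1 are neighbours in this order whose libraries overlap.

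Over the 8 members tested, 1 was called in cKO against WT under HDM (Pim1, lower), where 0.572% of all genes tested were called in either direction and 0.519% were called lower. Pim1 was also the 1 member with an unadjusted p under 0.05, against 9.6% of all genes. The median log2 difference of the members was -0.37, with 3 of 8 positive, against 0.02 over all genes, of which 50.8% were positive. It was also -0.37 with Pim1 held at its bound. Groups did not overlap for 4 members that were lower in cKO HDM (Pim1, Bcl3, Hif1a and Vegfa), against 21.9% of all genes, and for 1 that was higher (Bcl2l1), against 21.1% of all genes. In cKO against WT under PBS, no tool called a member (0 for limma, 0 for edgeR and 0 for DESeq2). Of all genes tested, 0% were called with limma. Members with an unadjusted limma p under 0.05 numbered 0, against 6.96% of all genes. The median log2 difference of the members was 0.29, with 6 of 8 positive (4 with TMM scaling, which turns Mcl1 and Bcl2l1), against -0.09 over all genes, of which 44.6% were positive. Pim1 and Vegfa were higher in cKO PBS without overlap, which held for 15.7% of all genes, and 0 members were lower without overlap, against 19.1%.

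In HDM against PBS, 0 members were called with limma in either genotype, where 0.0532% of all genes tested were called in cKO and 0.519% in WT. In each genotype 1 member, Pim1, had an unadjusted p under 0.05, against 7.77% of all genes in cKO and 8.93% in WT. In cKO, edgeR called 0 members and DESeq2 called Pim1 (log2 difference -7.09, adjusted p = 0.0132), and in WT both tools called Pim1 alone. The median log2 difference of the members was 0.14 in cKO, with 4 of 8 positive (6 with TMM scaling, which turns Bcl3 and Hif1a), and also 0.14 with Pim1 at its bound, against 0.10 over all genes, of which 55.5% were positive. Groups did not overlap in cKO for Mcl1, which was higher under HDM, against 19% of all genes, and for Pim1 and Vegfa, which were lower, against 16.7%. In WT the median was 0.79, with 7 of 8 positive, against -0.03 over all genes, of which 48.5% were positive. Groups did not overlap for 6 members that were higher in WT HDM than in WT PBS (all tested except Bcl2l1 and Ccnd1), against 21.2% of all genes, and for 1 that was lower (Bcl2l1), against 20.8%. WT HDM had the highest mean of the 4 groups for Pim1, Bcl3, Mcl1, Hif1a and Vegfa, 5 of 8 members, against 30% of all genes. These comparisons share their WT HDM libraries. For the difference between the responses, 0 members were called with limma, 1 (Pim1) had an unadjusted p under 0.05, and edgeR and DESeq2 each called Pim1, where limma called 0.0266% of all genes and 7.77% had an unadjusted p under 0.05. The median of the members was -0.74, with 2 of 8 positive, against 0.16 over all genes, of which 56% were positive. Averaged over treatment, cKO against WT gave 0 called members with limma, against 0.12% of all genes, 1 with an unadjusted p under 0.05 (Pim1), against 8.41%, 0 with edgeR and 1 with DESeq2 (Pim1). Averaged over genotype, HDM against PBS gave 0 called members with limma, edgeR and DESeq2 and 0 with an unadjusted p under 0.05, against 0.399% of all genes called with limma and 8.45% under that unadjusted p.

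**Figure D3:**
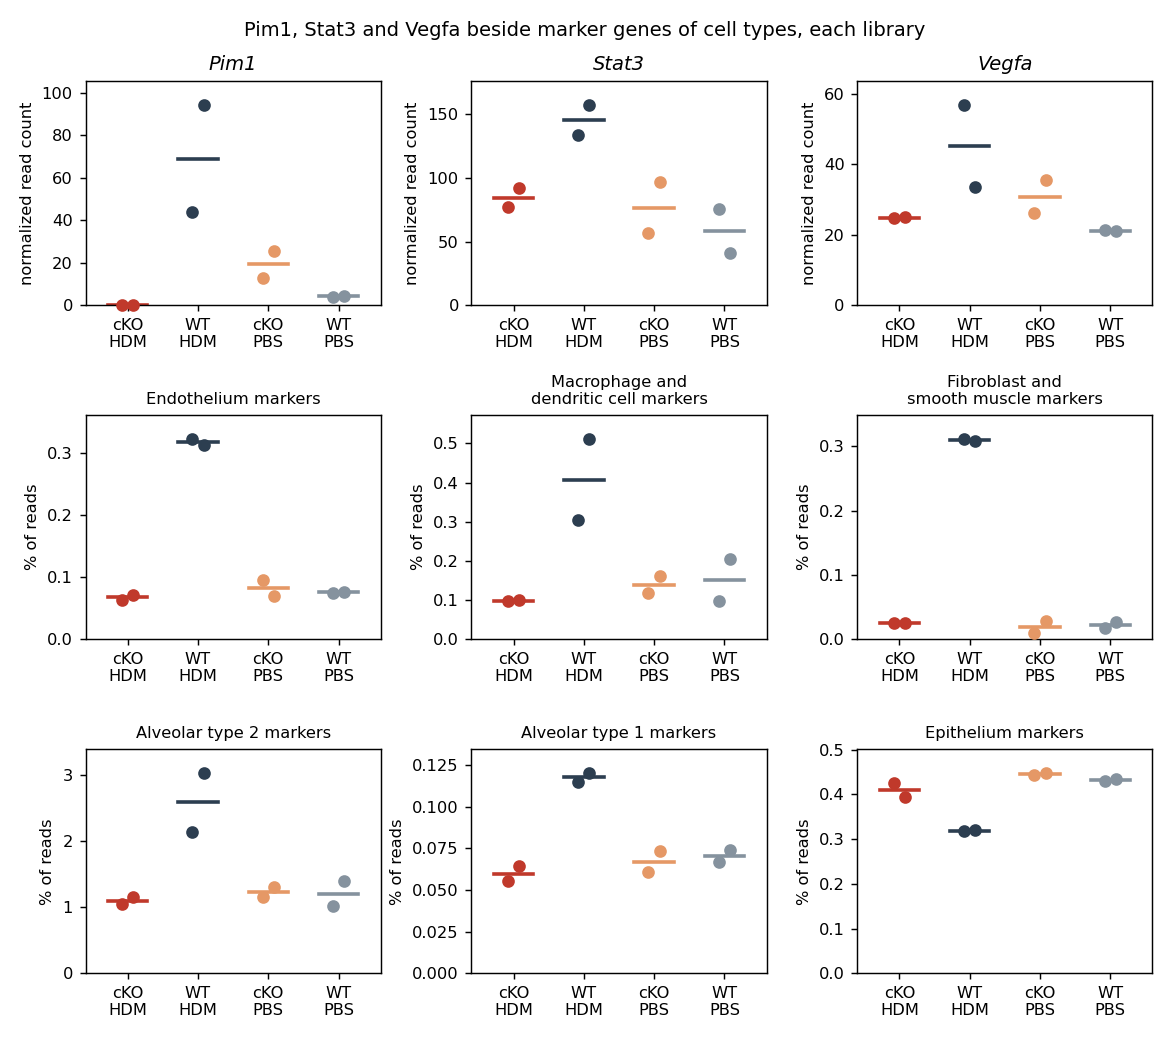
Pim1, Stat3 and Vegfa as normalized read counts (top row) and the share of reads, in percent, of the marker genes of 6 cell types, in each library (points) with group means (bars). The endothelial, fibroblast, macrophage and both sets of alveolar markers stand highest in both WT HDM libraries, as Pim1 and Stat3 do. The general epithelial markers stand lowest there, at 0.318% and 0.320%.

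Upstream of STAT3, no cytokine of the list was high enough to be tested, and Il6, Il11, Il10 and Il22 had 0 reads in every library. Of 16 ligands and receptors 7 could be tested and 0 were called in any of the 7 comparisons. Their median log2 difference for cKO against WT under HDM was -0.01, against 0.02 over all genes. Those with the smallest p in that comparison were Il22ra1, the IL-22 receptor chain, at 3.25 ± 1.18, Lifr, the LIF receptor, at -1.97 ± 0.75, and Osmr, the oncostatin M receptor, at -2.20 ± 0.93 (limma adjusted p = 0.352, 0.39 and 0.461). Il22ra1 had 40.6 and 32.4 normalized counts in cKO HDM and 14.3 and 0 in WT HDM. Under PBS it had 61.8 and 5.08 in cKO and 26.8 and 27.3 in WT, so libraries of a group could lie far apart. Il6st, the shared signalling chain gp130, stood at 0.46 ± 0.28 for HDM against PBS in WT (limma adjusted p = 0.71). Of 9 kinases and factors 7 were tested and 0 were called, with a median log2 difference of -0.56 for cKO against WT under HDM. Stat5b stood at -1.53 ± 0.75 and Jak1 at -0.72 ± 0.45 in that comparison. Of 13 inhibitors of the pathway 11 were tested and 0 were called, with a median log2 difference of -0.16 for cKO against WT under HDM. For HDM against PBS, Cish, a relative of Socs3, stood at 2.20 ± 1.17 in WT and 3.30 ± 1.17 in cKO. Socs2, another relative, stood at 0.49 ± 0.40 in WT and 0.43 ± 0.40 in cKO. Ptpn1, a phosphatase of Janus kinases, stood at -0.80 ± 0.44 for cKO against WT under HDM.

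Of 34 other genes known as STAT3 targets, 21 were tested. For cKO against WT under HDM 0 were called, against 0.572% of all genes tested. The median log2 difference was -0.61 with 4 of 21 positive, against 0.02 and 50.8% over all genes. Lrg1, an acute-phase glycoprotein, had 3 and 4 reads in cKO HDM and 102 and 63 in WT HDM, a log2 difference of -4.33 ± 1.18 that did not pass (limma adjusted p = 0.15). Junb, an AP-1 transcription factor, stood at -0.79 ± 0.27 and Tnfrsf1a, the TNF receptor, at -1.40 ± 0.48 (limma adjusted p = 0.317 for both). For HDM against PBS in WT 1 of the 21 was called, against 0.519% of all genes. The median log2 difference was 0.47 with 13 of 21 positive, against -0.03 and 48.5% over all genes. That gene, the stress-response gene Gadd45g, rose, with 90.0 and 128 normalized counts in the WT HDM libraries and 21.4 and 15.5 in those of WT PBS (log2 difference 2.49 ± 0.51, limma adjusted p = 0.0403). In cKO it had 37.7 and 74.8 normalized counts under HDM against 16.3 and 16.5 under PBS. Averaged over genotype, HDM against PBS gave 2.07 for Gadd45g, also called (limma adjusted p = 0.0129), and lost without either WT HDM library, either WT PBS library or replicate 2 of cKO HDM (0.0502 to 0.183). Its call in WT was lost without the first or second library of WT HDM (limma adjusted p = 0.0818 and 0.656), of cKO HDM (0.0675 and 0.0706) or of WT PBS (0.271 and 0.317). It was also lost with a pseudocount of 0.2 (0.088), no filter (0.156) and no variance trend (0.216), and held in 12 of 21 alternative settings.

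Among 25 partners and targets of Hif1a and Vegfa, 14 were tested and Nrp1 was called. Nrp1 encodes neuropilin 1, a co-receptor for VEGF-A found on endothelium and other cells. It had 21.0 and 37.4 normalized counts in cKO HDM, 190 and 226 in WT HDM, 11.4 and 35.6 in cKO PBS, and 27.6 and 38.2 in WT PBS. The WT HDM libraries lay above the other 6. Nrp1 fell in cKO against WT under HDM (-2.84 ± 0.53, limma adjusted p = 0.0205) and rose in HDM against PBS in WT (2.64 ± 0.53, limma adjusted p = 0.0403). The first call was lost without the first or second library of WT HDM (limma adjusted p = 0.0791 and 0.447), of cKO HDM (0.32 and 0.0894) or of WT PBS (0.0598 and 0.0632). The second was lost without the same 6 libraries (0.109 and 0.633, 0.0675 and 0.0706, 0.416 and 0.203). Both were also lost with a pseudocount of 0.2, no filter and no variance trend (0.059, 0.129 and 0.349 for the first, 0.0997, 0.177 and 0.337 for the second), and the second with TMM scaling (0.0506). The first held in 13 and the second in 12 of 22 alternative settings. The median log2 difference of the 14 was -0.05 for cKO against WT under HDM, against 0.02 over all genes. Endothelial markers were higher in the WT HDM libraries, as given above, and their part in Nrp1 was not tested.

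The genes whose pattern over the 8 libraries was most like that of Pim1, by Pearson correlation of log2 values, were Prkcd (r = 0.97), Nubp1 (r = 0.96) and Shisa5 (r = 0.95). For Socs3 they were Cox17, Zkscan3 and Phb (r = 0.95 to 0.97), for Mcl1 Actb, Hdgf and Myl6 (r = 0.91 to 0.93), and for Vegfa Snx25, Prkch and the endothelial marker Tie1 (r = 0.91 to 0.96). For Bcl3 they were Dcun1d4, Phldb2 and Blmh, for Bcl2l1 Scyl2, Cand1 and Senp2, for Ccnd1 Peli1, Coa3 and Caskin2, and for Hif1a Tmcc3, Acadsb and Tmem184b. Each was picked as the highest among all tested genes over 8 points that share libraries and depth, and is given as a description.

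**Figure D4:**
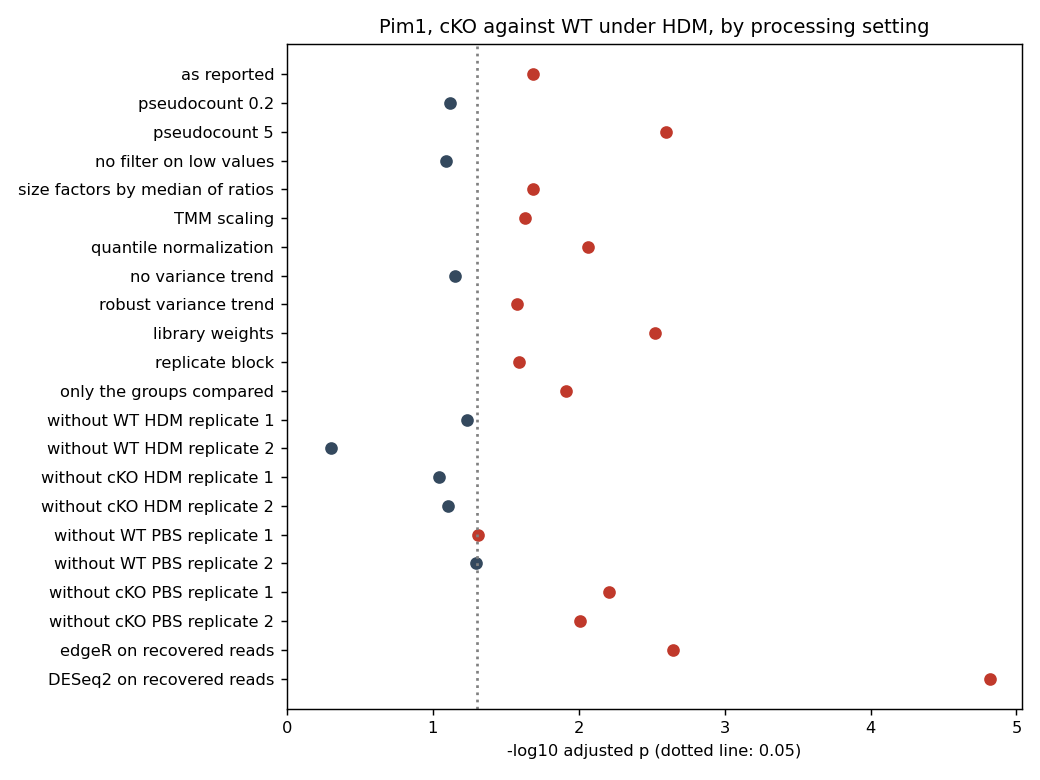
Adjusted p of Pim1 for cKO against WT under HDM, as -log10, in the fit as reported and in 21 alternative settings (rows), with a dotted line at 0.05. The call held in 13 of the 21, and the point farthest to the left is that without the second WT HDM library (adjusted p = 0.498).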

How the data were processed

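RNA was measured in 8 libraries, 2 per group. The deposited table holds, per gene symbol and library, a signal value, the read count scaled by the authors. The tools HOMER and DESeq2 and the mm10 build are named per the submitters' processing notes. The sources used here do not give the aligner, annotation, versions or use of strand. Within a library, 100% of the values above 0 were multiples of a single step (within 0.01 reads), so whole reads were recovered. A count of 0 allows up to 3 reads, 1.96 to 4.88 normalized counts, and this floor covers counting error only.

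Values were analysed as log2(value + 1) for the 7512 genes with a mean of at least 10, with limma 3.58.1 in R 4.3.3 (1 mean per group, all 8 libraries, variance trend). Fold changes are on that log2 scale, where those of low genes come out too small. P-values are two-sided and Benjamini-Hochberg adjusted over all genes tested, with a threshold of 0.05. Errors after ± are standard errors on log2 differences and SD on counts. An exact test of 2 libraries against 2 cannot go below p = 0.333, so none was used. The 7 comparisons were each factor within each level of the other, their interaction and each factor averaged.

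Alternatives were other pseudocounts, filters, scalings and variance models, library weights, a replicate block, fits of only the groups compared, each library left out (for the Pim1 bound, chosen after seeing the data), and edgeR 4.0.16 (quasi-likelihood) and DESeq2 1.42.0 on the recovered reads. The members, the gene lists and the rule for named genes (all members and Stat3, listed genes that passed, otherwise up to 3 of smallest p per list in cKO against WT under HDM and in HDM against PBS in WT, and the 3 genes most correlated with a member) were chosen with earlier results of these data known. Gene positions and exon lengths are from GENCODE M21 (GRCm38, the same assembly as mm10), and promoter sequences from RefSeq (GRCm38.p6).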

Additional observations from a re-analysis of the deposited data

Results flagged for a closer look

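Pim1 moved in opposite directions in the 2 genotypes, with no overlap between libraries. HDM libraries lay below PBS libraries in cKO (0 and 0 reads against 8 and 20) and above them in WT (67 and 73 reads against 5 and 5). Neither change passed with limma (adjusted p = 0.312 in cKO and 0.252 in WT). Of all genes tested, 10.9% showed opposite directions without overlap, in both genotypes or in both treatments. The difference between the responses was -7.92 on the log2 scale, a size that depends on the pseudocount of 1. It did not pass with limma (adjusted p = 0.155) and passed with edgeR and DESeq2.

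Vegfa showed the same opposite directions without overlap, at 24.7 and 24.9 normalized counts under HDM against 26.0 and 35.6 under PBS in cKO, and at 56.7 and 33.5 under HDM against 21.4 and 20.9 under PBS in WT. In cKO the nearest libraries, 24.9 and 26.0, lie less than the worth of 1 read apart. Such opposite directions without overlap, in both genotypes or in both treatments, held for 10.9% of all genes tested. The difference between the responses was -1.29 on the log2 scale and did not pass (limma adjusted p = 0.687).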

How the results depend on the processing

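In cKO against WT under HDM the count of called members was 1 (Pim1). It was 0 with a pseudocount of 0.2, with no filter, with no variance trend and with a minimum mean of 50, which leaves Pim1 untested, and 0 to 1 with a library left out. In HDM against PBS in WT the count was 0, and it was 1 (Pim1) with a pseudocount of 5, with only the groups compared, with edgeR and with DESeq2. In HDM against PBS in cKO and in cKO against WT averaged over treatment it was 0, and 1 (Pim1) with DESeq2. For the interaction it was 0, and it was 1 (Pim1) with a pseudocount of 5, quantile normalization, edgeR and DESeq2, and 0 to 1 with a library left out, called without the first or second cKO PBS library (limma adjusted p = 0.0474 and 0.0432). In the other comparisons it stayed 0 with a library left out. The replicate block changed no count of members (1 under HDM, Pim1 adjusted p = 0.0258). Deviations of same-numbered libraries correlated at -0.016 to 0.018 between groups, so no shared effect of the replicate number was visible. Whether same-numbered libraries were handled together is not in the labels. No log2 difference of a member or Stat3 with an unadjusted p under 0.05 reversed. Among 1324 recomputed values, 41 changed sign with neither value under that p. TMM scaling moved the median of all genes in HDM against PBS in cKO to 0.21, as against 0.10, and in cKO against WT under PBS to -0.19, as against -0.09. It turned the sign of Bcl3 and Hif1a in HDM against PBS in cKO, and of Mcl1 and Bcl2l1 in cKO against WT under PBS, none called. Genes called of all tested in cKO against WT under HDM were 43, and 0 to 142 over the alternatives (3 to 117 with a library left out). For HDM against PBS they were 39 in WT, and 1 to 190 (3 to 110), and 4 in cKO, and 0 to 28 (0 to 320). In cKO against WT under PBS they were 0, and 53 and 315 without the first or second cKO PBS library. With quantile normalization 25 genes were called higher and 71 lower in cKO against WT under HDM, in place of 4 and 39, and 73 and 28 in HDM against PBS in WT, in place of 38 and 1. The causes were not tested. Depth limits Myc and Bcl3 most, with 15 and 94 reads over all libraries.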

Other observations

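Of 16 relatives of Pim1, Mcl1 and Bcl2l1, 6 were tested, and 0 were called in any of the 7 comparisons. Pim3, the closest tested relative of Pim1, had 49.3 and 54.8 normalized counts in cKO HDM, 64.6 and 77.4 in WT HDM, 39.0 and 95.2 in cKO PBS, and 53.6 and 67.3 in WT PBS. It thus had reads in both cKO HDM libraries, where Pim1 had 0. Its log2 difference for cKO against WT under HDM was -0.44 ± 0.44 (limma adjusted p = 0.827). Bok, a BCL-2 relative that promotes cell death, stood at 1.43 ± 0.50 in that comparison (limma adjusted p = 0.328), with 87.8 and 72.3 normalized counts in cKO HDM and 40.4 and 20.6 in WT HDM.

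Of 19 partners and regulators of Ccnd1, Myc and Bcl3, 15 were tested and 0 were called in any of the 7 comparisons. Mycl, a relative of Myc, had 85.6 and 81.4 normalized counts in cKO HDM, 48.3 and 24.5 in WT HDM, 45.5 and 81.3 in cKO PBS, and 91.1 and 75.5 in WT PBS, a log2 difference of 1.25 ± 0.43 for cKO against WT under HDM (limma adjusted p = 0.322). Mycl thus had reads in every library, while Myc had 0 in 5 of the 8. The other D cyclins ran in opposite directions in that comparison, with Ccnd2 at 0.83 ± 0.39 and Ccnd3 at -0.95 ± 0.51 (limma adjusted p = 0.518 and 0.586), and Ccnd1 between them at 0.11 ± 0.31. Cdkn1a, an inhibitor of the cell cycle, stood at -0.90 ± 0.36 (limma adjusted p = 0.418).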
